A study of Mus musculus with 4 samples.

Results

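Ucp1 and 6 further genes that carry out heat production in brown and beige fat were followed through vehicle and entacapone treatment of obese mouse fat. The 7 genes, Ucp1, Cidea, Dio2, Elovl3, Cox7a1, Cox8b and Cpt1b, are 7 of the 37315 Ensembl gene identifiers in the input count files. They were chosen by name from earlier results of the same libraries, with their counts in both inputs and their m6A peaks already known. Every level and ratio below is therefore a description and none is tested. Inguinal white adipose tissue was taken from male C57BL/6 mice aged 23 weeks with obesity induced by a high-fat diet. One group received entacapone, a drug of Parkinson's disease that is also reported to block FTO, an enzyme that removes m6A, and the other group received vehicle. Each treatment gave 1 input library of fragmented poly(A) RNA and 1 library of RNA pulled down with an antibody against N6-methyladenosine (m6A), so 4 libraries make up the study. The labels give neither the dose and duration of treatment nor the number of animals behind a library.

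Brown and beige adipocytes burn fatty acids to make heat, and white adipocytes mainly store them. UCP1 sits in the inner mitochondrial membrane and lets protons return to the matrix without making ATP. Noradrenaline acts through β-adrenergic receptors and cAMP to switch its gene on. The other genes supply that process with active thyroid hormone, with fatty acids and with respiratory chain subunits typical of oxidative tissue. Inguinal fat of mice is the classic depot in which beige adipocytes appear among white ones.

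The entacapone input held 33164576 gene-assigned counts and the vehicle input 24548212, a ratio of 1.35. Levels are given as CPM (counts scaled to library size) with library sizes set by the TMM method, and ratios as the entacapone CPM over the vehicle CPM. Brackets and ranges after a level or ratio are 95% intervals for counting error, and they compare these libraries and not the treatments, since no library has a replicate. Transcript lengths were not used here, so levels are compared between libraries and not between genes.

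Ucp1, the uncoupling protein itself, had the highest ratio of the 13821 identifiers with at least 1 CPM on average over both inputs. Its identifier ENSMUSG00000031710 held 1211 counts in the entacapone input and 24 counts in the vehicle input. The level was 35.4 CPM in the entacapone input (33.4 to 37.4) and 1.01 CPM in the vehicle input (0.647 to 1.502). The intervals of the libraries lie far apart, and the ratio of 35.0 has an interval of 23.4 to 54.9. In bulk tissue, fewer cells that express a gene and less of its RNA per cell cannot be told apart. The gene spans 8109 bp of chromosome 8, from 83290348 to 83298456 (GRCm38.p6), with no other annotated gene across it.

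**Figure D1:**
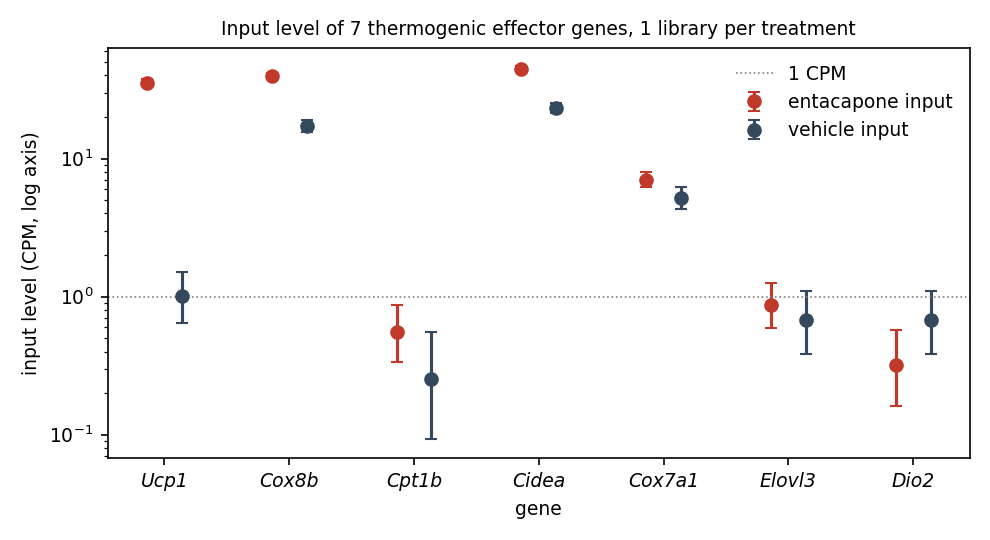
Input level in CPM (log axis) of the 7 genes in the entacapone input (left point of each pair) and the vehicle input (right point); bars are exact Poisson 95% intervals for counting error and the dotted line marks 1 CPM. Ucp1 stands at 35.4 CPM in the entacapone input and at 1.01 CPM in the vehicle input, whereas the intervals of Elovl3, Cpt1b and Dio2 overlap between the libraries.

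Cidea, which encodes a lipid droplet protein that enlarges droplets and is a classic brown fat marker, was also higher in the entacapone input. ENSMUSG00000024526, its identifier, held 1516 counts in the entacapone input and 556 in the vehicle input, or 44.3 CPM (42.1 to 46.6) and 23.4 CPM (21.5 to 25.4). The ratio was 1.89 with an interval of 1.72 to 2.09. This gene was thus well measured in the vehicle input, where Ucp1 held 24 counts.

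Both cytochrome c oxidase genes encode the subunit forms found in heart, skeletal muscle and brown fat. Cox8b (ENSMUSG00000025488) held 1364 counts in the entacapone input and 409 in the vehicle input, or 39.8 CPM (37.7 to 42.0) and 17.2 CPM (15.6 to 19.0). Its ratio was 2.31 with an interval of 2.07 to 2.59. Cox7a1 (ENSMUSG00000074218) differed less. It held 241 counts in the entacapone input and 123 in the vehicle input, or 7.04 CPM (6.18 to 7.98) and 5.17 CPM (4.30 to 6.17). The Cox7a1 ratio was 1.36 with an interval of 1.09 to 1.70, which lies above 1 and includes 1.5. An interval wholly above 1 was found for 25.9% of the 13821 identifiers described below.

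The remaining genes were too sparsely counted to place. Dio2 (ENSMUSG00000007682) encodes the deiodinase that converts thyroxine into active triiodothyronine inside the cell. It was the gene of the 7 with a ratio under 1, with 11 counts in the entacapone input and 16 in the vehicle input, or 0.321 CPM (0.160 to 0.575) and 0.673 CPM (0.385 to 1.09). Its ratio of 0.477 has an interval of 0.200 to 1.09, which includes 1. Elovl3 (ENSMUSG00000038754), an elongase of very long chain fatty acids, held 30 counts in the entacapone input and 16 in the vehicle input, or 0.876 CPM (0.591 to 1.25) and 0.673 CPM (0.385 to 1.09). The Elovl3 ratio was 1.30 with an interval of 0.687 to 2.56. For both genes the intervals of the libraries overlap.

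Cpt1b (ENSMUSG00000078937), the muscle form of the carnitine palmitoyltransferase that starts mitochondrial import of fatty acids, had the fewest vehicle counts of the 7 genes. It held 19 counts in the entacapone input and 6 in the vehicle input, or 0.555 CPM (0.334 to 0.866) and 0.252 CPM (0.0926 to 0.549). The ratio of 2.20 is close to that of Cox8b, but its interval runs from 0.844 to 6.72. At 6 vehicle counts, 32 entacapone counts, a ratio of 3.70, would have been the smallest count to place the whole interval above 1.5. At the 16 vehicle counts of Dio2 and Elovl3, 61 entacapone counts, a ratio of 2.65, would have been needed. Smaller rises in these genes could not have met that limit at these vehicle counts. For the whole interval to lie beyond 1.5-fold on the lower side, Dio2 and Elovl3 would have needed 5 entacapone counts or fewer, and Cpt1b 0. The whole Cpt1b span of 9458 bp is shared with a long noncoding RNA gene, Gm44502, and how the counting treated reads shared by overlapping genes is not stated. Dio2 and Cidea each share an end with a noncoding gene (939 bp with Gm26512 and 540 bp with B430212C06Rik), and Elovl3 shares 414 bp with the protein-coding Pitx3, so their counts carry the same reservation.

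**Figure D2:**
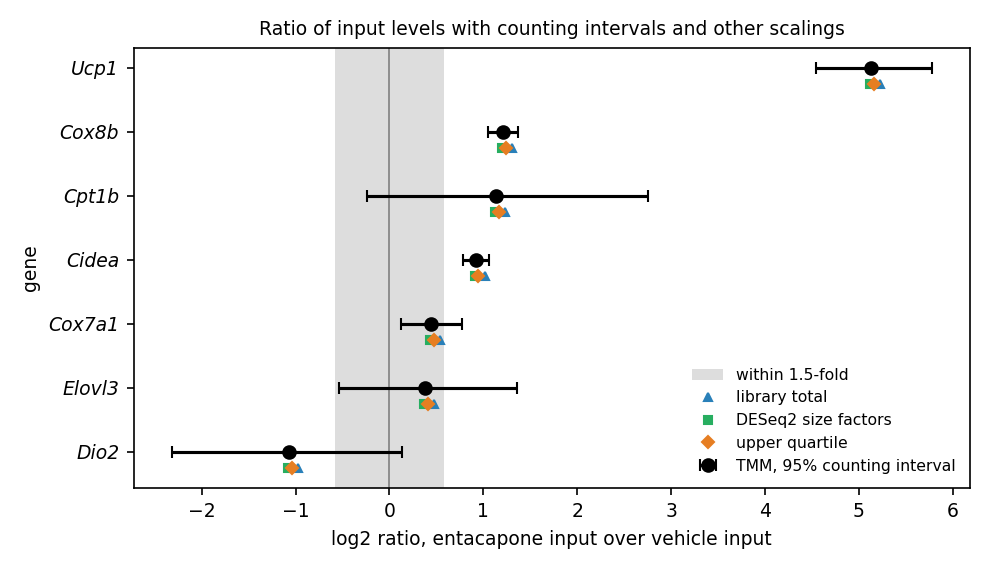
Log2 of the entacapone level over the vehicle level for each gene; black points and bars are TMM-scaled ratios with 95% counting intervals, coloured markers are other scalings, and the grey band marks ratios within 1.5-fold. Ucp1 (ratio 35.0), Cox8b (2.31) and Cidea (1.89) lie wholly above the band under every scaling, the Cox7a1 interval enters it, and the Cpt1b, Elovl3 and Dio2 intervals cross 0.

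An identifier is called higher or lower when its whole interval lies beyond 1.5-fold. Ucp1, Cox8b and Cidea were called higher and 0 of the 7 genes were called lower. Over all 13821 identifiers with at least 1 CPM on average over both inputs, 659 (4.77%) were called higher and 447 (3.23%) lower. Ucp1, Cidea, Cox8b and Cox7a1 reached that average, and Dio2, Elovl3 and Cpt1b did not, with means of 0.497, 0.775 and 0.404 CPM. Without that filter the calls among the 7 genes were the same 3. Since earlier results of these inputs chose the genes, nothing is read from the distance between their share and the background. The median log2 ratio, computed after adding 0.5 counts, was 0.92 over all 7 genes, which include the 3 below the filter. It was 1.06 over the 4 that reached the filter and -0.01 over the 13821 identifiers, which all did.

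The position of each gene in the distribution of all ratios shows how unlike they were. No identifier of the 13821 exceeded the Ucp1 log2 ratio of 5.10, nor did any of the 22551 with at least 1 count in either input, of which 2213 had 0 vehicle counts. A ratio above that of Cox8b was found for 429 identifiers, above that of Cidea for 689 and above that of Cox7a1 for 1656. Among the 7 genes Ucp1 alone had an interval wholly beyond 4-fold on the higher side, where 10 of all identifiers lay (0.0724%). Outside the 7 genes, the identifiers nearest to Ucp1 in log2 ratio over these 2 input libraries were ENSMUSG00000032496 and ENSMUSG00000058354, which the files do not name. The first had 731 counts in the entacapone input and 22 in the vehicle input, a log2 ratio of 4.50. The second had 160 counts in the entacapone input and 8 in the vehicle input, a log2 ratio of 3.71. Even the nearest identifier therefore stood 0.61 below Ucp1 on the log2 scale.

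**Figure D3:**
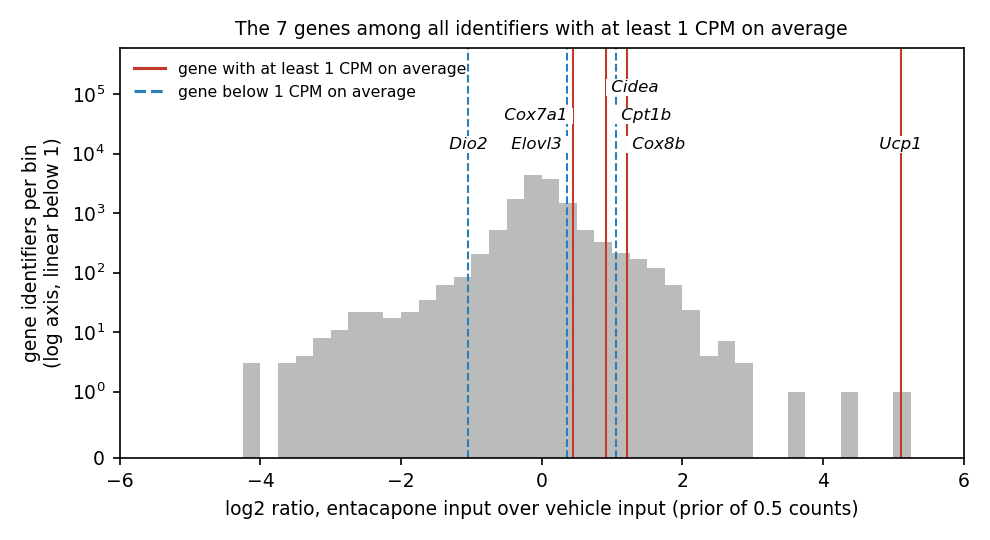
Number of gene identifiers (log axis, linear below 1) by log2 ratio of entacapone input over vehicle input, in bins of 0.25, for the 13821 identifiers with at least 1 CPM on average; vertical lines mark the 7 genes, dashed for those below that average. Ucp1 lies alone at 5.10, Cox8b, Cpt1b and Cidea lie on the upper shoulder between 0.92 and 1.21, and Dio2 lies at -1.05.

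Ratios of different genes can be set against each other without any scaling of the libraries, because the library sizes cancel. The 7 genes make 21 pairs, and the exact conditional interval of the ratio of ratios left out 1 in 13 of them. The Ucp1 ratio was 15.1 times that of Cox8b (9.93 to 24.0), 18.5 times that of Cidea (12.2 to 29.3) and 25.8 times that of Cox7a1 (16.1 to 42.5). The Ucp1 interval lay above 1 against all 6 other genes, the lowest limit being the 4.74 against Cpt1b. The Cox8b ratio was 1.22 times that of Cidea (1.05 to 1.42) and 1.70 times that of Cox7a1 (1.32 to 2.18). The ratios of these subunits of the same enzyme thus differed by more than counting error in these libraries. Variation between libraries of the same treatment is not in these intervals, which are not adjusted for the 21 pairs. Against Dio2, the ratios of Ucp1, Cox8b, Cpt1b, Cidea and Cox7a1 were 73.4, 4.85, 4.61, 3.97 and 2.85 times as large, all with intervals above 1, and that of Elovl3 was 2.73 times as large with an interval of 0.922 to 8.16. In the other 7 pairs whose interval held 1, Cpt1b or Elovl3 was always a partner.

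**Figure D4:**
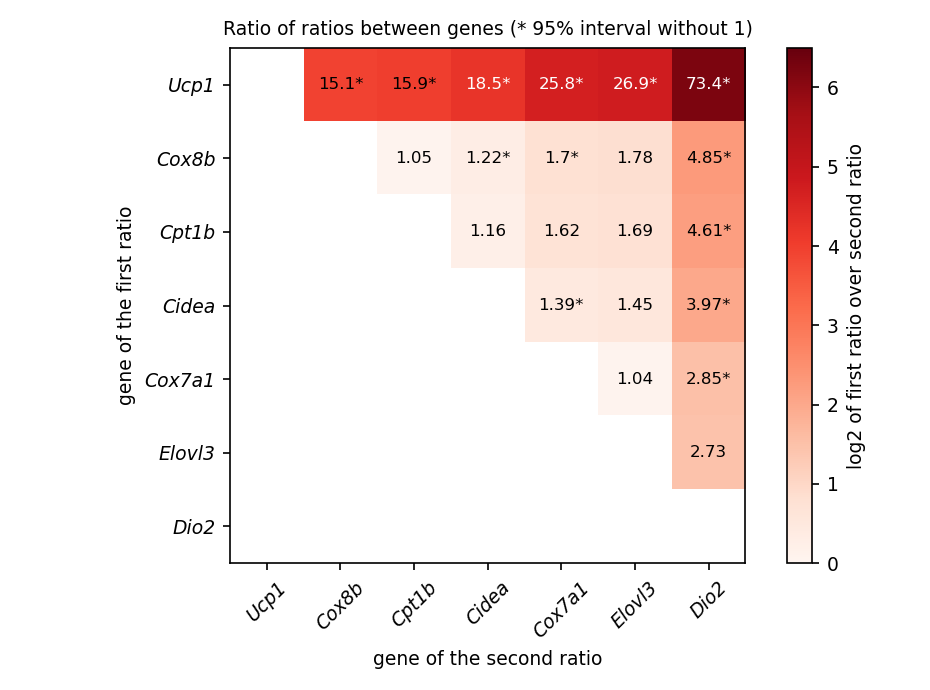
Ratio of ratios for the 21 pairs of genes, row gene over column gene, ordered by their own log2 ratio; colour gives the log2 value and an asterisk marks a 95% counting interval without 1. The Ucp1 row holds values from 15.1 to 73.4, and the pairs among the other 6 genes range from 1.04 to 4.85.

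The share of each gene in the counts of all 7 was compared between the libraries, not between genes, since long transcripts take more reads. Together the 7 genes held 4392 counts in the entacapone input and 1150 in the vehicle input, or 128 CPM and 48.4 CPM. Ucp1 supplied 27.6% of these counts in the entacapone input (Wilson 95% interval 26.3 to 28.9) and 2.09% in the vehicle input (1.41 to 3.09). Cidea supplied 34.5% in the entacapone input (33.1 to 35.9) and 48.3% in the vehicle input (45.5 to 51.2). The Ucp1 share was thus higher in the entacapone input and the Cidea share lower. The shares are parts of a whole, so a higher Ucp1 share lowers the others. The lower Cidea share is not a lower level, since Cidea stood at 44.3 CPM in the entacapone input and 23.4 CPM in the vehicle input. Without Ucp1, the sum still differed: the other 6 genes held 3181 counts in the entacapone input and 1126 in the vehicle input, a ratio of 1.96 (1.83 to 2.101). Most of that sum came from Cidea and Cox8b, with 1516 and 1364 counts in the entacapone input and 556 and 409 in the vehicle input. It therefore says little of the sparser genes.

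The start regions of these genes are shown as a description of their sequence, and their part in the input ratios was not tested. RefSeq's promoter table (GRCm38.p6) holds 4 of the 7 genes, and the 250 bases before the start are printed here 5′ to 3′ on the strand of the gene. Capitals mark TGACG, the core of the element bound by cAMP response factors, AGGTCA, the core bound by many nuclear receptors, and TATAAA, the TATA core, each on either strand.
Ucp1, chr8:83290098-83290347, plus strand: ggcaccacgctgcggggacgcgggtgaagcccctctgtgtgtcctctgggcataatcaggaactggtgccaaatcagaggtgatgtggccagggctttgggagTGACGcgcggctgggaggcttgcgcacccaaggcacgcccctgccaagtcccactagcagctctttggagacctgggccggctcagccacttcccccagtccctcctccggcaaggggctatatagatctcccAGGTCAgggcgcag
Dio2, chr12:90739039-90739288, minus strand: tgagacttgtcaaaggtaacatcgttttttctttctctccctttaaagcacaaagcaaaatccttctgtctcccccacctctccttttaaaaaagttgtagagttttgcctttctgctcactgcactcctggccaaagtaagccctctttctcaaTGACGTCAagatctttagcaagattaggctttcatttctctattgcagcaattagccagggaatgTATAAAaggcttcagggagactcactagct
Cox8b, chr7:140900447-140900696, minus strand: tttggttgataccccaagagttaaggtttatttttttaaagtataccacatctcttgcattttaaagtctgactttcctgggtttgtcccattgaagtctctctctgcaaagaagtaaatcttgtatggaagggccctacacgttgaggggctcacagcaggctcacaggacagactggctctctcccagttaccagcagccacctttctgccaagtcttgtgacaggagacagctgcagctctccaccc
Cox7a1, chr7:30183921-30184170, plus strand: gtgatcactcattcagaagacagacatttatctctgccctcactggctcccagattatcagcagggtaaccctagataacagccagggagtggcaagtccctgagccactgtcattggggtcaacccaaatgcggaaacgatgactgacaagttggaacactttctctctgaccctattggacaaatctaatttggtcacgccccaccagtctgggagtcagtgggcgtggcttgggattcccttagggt

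The Ucp1 window held 1 TGACG, starting 147 bases before the start, and 1 AGGTCA, starting 14 bases before it. The Dio2 window held the full palindrome TGACGTCA, starting 95 bases before the start, in which TGACG occurs on both strands with the copies overlapping, and TATAAA 30 bases before the start. Neither the Cox8b nor the Cox7a1 window held any of these letters, and the CCAAT box, searched as CCAAT on both strands, was found in the Cox7a1 window alone, starting 137 and 74 bases before the start. Of all 32851 windows of 250 bases in the table, 17.8% held TGACG, 1.55% TGACGTCA, 14.0% AGGTCA, 12.4% TATAAA and 33.8% CCAAT. The full palindrome is the longest of these motifs and contains TGACG, so its share could not exceed that of TGACG. Cidea, Elovl3 and Cpt1b have no window in it. G and C made up 64.8% of the Ucp1 window, 41.6% of the Dio2 window, 47.2% of the Cox8b window and 51.2% of the Cox7a1 window, against a median of 52.4% over the table. A match of letters is not evidence of binding, and its absence from these bases says nothing of elements elsewhere, such as the distal Ucp1 enhancer, which lies outside the window.

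The m6A peak lists were searched for peaks with a midpoint inside the 7 gene spans. There were 31856 entacapone peaks to search and 22860 vehicle peaks, or 1.39 times as many in the entacapone list. The read depth of the pull-down libraries is not given here, and its part in the numbers of peaks was not tested. Elovl3 carried 1 peak in the entacapone list and 0 in the vehicle list, and Ucp1, Cidea, Dio2, Cox7a1, Cox8b and Cpt1b carried 0 in both. Among all 21900 protein-coding genes, 49.9% carried an entacapone peak and 41.1% a vehicle peak. Among the 10880 with spans between 1.505 and 24.231 kb, the range of the 7 genes, these shares were 45.6% and 36.1%. More entacapone than vehicle peaks were counted in 29.2% of all protein-coding genes and fewer in 7.99%. When the entacapone list was limited to its 22860 peaks of highest fold, the length of the vehicle list, its share was 40.2%; that removes the entacapone peaks of lowest fold alone. Beside these shares, 1 of the 7 genes had an entacapone peak and 0 of 7 a vehicle peak. Since the genes were chosen with these peaks known, nothing is read from the distance to the background, and no test was made. A gene listed without a peak is not shown to lack m6A. Of the genes without a peak, Dio2 and Cpt1b had 19 counts or fewer in each input, whereas Cidea and Cox8b had 409 or more. Ucp1 had 1211 counts in the entacapone input but 24 in the vehicle input, and Cox7a1 had 241 and 123.

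The Elovl3 peak lay at 46135161 to 46135210 on chromosome 19, inside the gene span of 46131897 to 46135694, and no other gene span held its midpoint. It lay 508 bp from the nearer end of the span. The fold, the authors' own value for a peak, was 4.45, above that of 77.2% of the entacapone peaks, where the median was 3.10. The same fold to the last digit was listed for 140 entacapone peaks. At 49 bp the peak had the narrowest width in its list, one that 1147 entacapone peaks share, against a median of 112 bp. No vehicle peak overlapped it, and the nearest one lay 65721 bp away. This peak therefore rests on a gene with 30 entacapone and 16 vehicle input counts, and it has no replicate.

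Outside the spans, the nearest peaks lay at very different distances. For Cpt1b, on chromosome 15 from 89416405 to 89425862, an entacapone peak of fold 1.73 lay 594 bp beyond the span, at 89426398 to 89426514, where Gm44502 and Chkb, a choline kinase gene, overlap. The nearest vehicle peak to Cpt1b was 44.0 kb away. For Ucp1 the nearest entacapone peak was 17.9 kb away in Elmod2 and the nearest vehicle peak 19.0 kb away in Tbc1d9, to either side of the gene. The stretch around Ucp1 was thus free of peaks in both libraries. Cox7a1 (chromosome 7, 30184171 to 30186030) had its nearest peaks at 5.825 kb in the entacapone list and 4.35 kb in the vehicle list, both in Gm5113. Cox8b (chromosome 7, 140898942 to 140900446) had them at 41.7 kb in the entacapone list and 42.3 kb in the vehicle list. Dio2 (chromosome 12, 90724552 to 90739038) was the most isolated, at 521 kb in each list, both in Cep128.

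**Figure D5:**
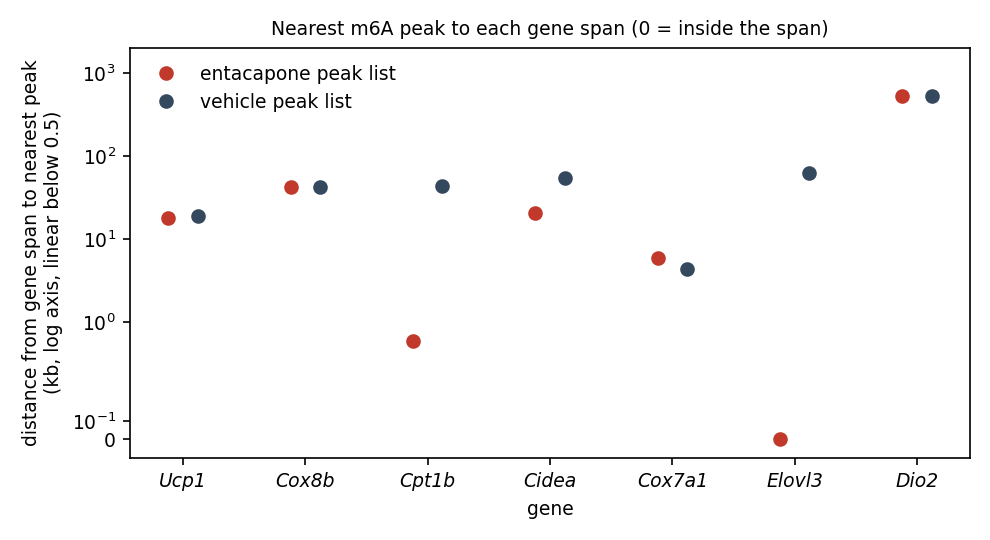
Distance in kb (log axis, linear below 0.5) from each gene span to the midpoint of the nearest peak in the entacapone list (left point) and the vehicle list (right point), where 0 means inside the span. Elovl3 alone reaches 0, in the entacapone list, Cpt1b follows at 0.594 kb in the same list, and both Dio2 points lie at 521 kb.

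Cidea, on chromosome 18 from 67343564 to 67367794, had its nearest entacapone peak 20.3 kb away in B430212C06Rik and its nearest vehicle peak 54.2 kb away in Impa2, an inositol phosphatase gene. The long noncoding B430212C06Rik is the gene that shares 540 bp with Cidea, and the peak lies in the part it does not share.

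Several paralogues of the 7 genes carried peaks. Of 20 paralogues, 8 had an entacapone peak and 4 a vehicle peak, 8 had more entacapone than vehicle peaks, 1 had fewer and 11 had none in either. The shares with a peak were 40.0% and 20.0%, below the 49.9% and 41.1% of all protein-coding genes, and no test was made. Over all protein-coding genes, 29.2% had more entacapone than vehicle peaks and 7.99% fewer. Ucp3, an uncoupling protein of muscle, had 5 entacapone and 3 vehicle peaks. Cidec, the lipid droplet relative of Cidea in white fat, had 3 and 2. Elovl6, which elongates shorter fatty acids than Elovl3 does, had 4 entacapone peaks and 0 vehicle peaks. Cpt1a, the liver form of the enzyme, had 3 and 0, whereas Cpt1c, the brain form, had 0 and 1. Among the cytochrome c oxidase relatives, Cox7a2 had 1 entacapone peak and 0 vehicle peaks. At equal list length, 7 paralogues had an entacapone peak and 4 a vehicle peak.

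The rest of the pathway was described by peaks alone, because the count files hold no names for its identifiers. Of 20 transcriptional regulators, 18 had an entacapone peak and 17 a vehicle peak, led by Prdm16, a determinant of brown fat identity, with 16 and 14 peaks. At equal list length the order of these counts turned, to 15 and 17, but at a fold of at least 4 it did not, at 11 and 10. Of 20 genes from β-adrenergic receptors to cAMP response factors, 18 had an entacapone peak and 14 a vehicle peak. These counts turned too, to 13 and 14 at equal list length and to 7 and 9 at a fold of at least 4. More entacapone than vehicle peaks were found in 8 of the 20, fewer in 3 and equal numbers in 7. Over all protein-coding genes, 29.2% had more and 7.99% fewer. Adcy5, an adenylyl cyclase gene, had 6 and 4 peaks, and Pde3b, which breaks down cAMP, had 6 and 1. Creb1, which encodes a factor of the cAMP response, had 4 and 4. Of 22 other brown and beige adipocyte genes, 14 had an entacapone peak and 11 a vehicle peak, with Kcnk3, a potassium channel, at 4 and 4 and Tmem26, a beige cell marker, at 4 and 1. At equal list length these were 12 and 11, and at a fold of at least 4 they were 4 and 3. All of these shares stand beside the 49.9% and 41.1% of all protein-coding genes, whose spans were not matched to those of the lists, and nothing is called particular to the lists.

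Cox7a1, Cox8b and Cpt1b are also genes of striated muscle, which can be taken along when inguinal fat is dissected. Of 20 skeletal muscle markers, 13 had an entacapone peak and 14 a vehicle peak, with 42 and 30 peaks in all, and 4 had none in either list. More entacapone than vehicle peaks were found in 7 of the 20, fewer in 6 and equal numbers in 3. Over all protein-coding genes, 29.2% had more and 7.99% fewer. Myh2, a fast myosin, had 5 and 5 peaks, and Myh7, another myosin, had 4 and 5. Ttn, titin, had 9 and 0, Mybpc2 had 2 and 3, and Atp2a1, the calcium pump, had 1 and 2. At equal list length, 7 muscle markers had an entacapone peak and 14 a vehicle peak. Peaks in muscle transcripts were thus listed in both libraries. Their input levels were not measured by name here, and their part in the input ratios of Cox8b and Cox7a1 was not tested. Of 18 white adipocyte markers, 11 had an entacapone peak and 8 a vehicle peak, among them Lep, the leptin gene, at 2 and 2. More entacapone than vehicle peaks were found in 9 of these 18 and fewer in 1. At equal list length 8 white adipocyte markers had a peak in each list. Of 12 endothelial markers, 12 had an entacapone peak and 5 a vehicle peak, or 7 and 5 at equal list length. Among them 11 had more entacapone than vehicle peaks and 0 had fewer. Of 12 macrophage markers, 6 had an entacapone peak and 6 a vehicle peak, or 4 and 6 at equal list length. Here 4 had more entacapone than vehicle peaks and 1 had fewer. The shares over all protein-coding genes were 49.9% and 41.1%, or 40.2% and 41.1% at equal list length.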

How the data were processed

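Per the labels, poly(A) RNA was fragmented, an anti-m6A antibody (10 μg for 5 μg of RNA) was used for the pull-down, and TruSeq v2 libraries were read at 101 bases. TopHat2 2.1.1, MACS2 and mm10 are named in the submitters' processing notes; no source used here gives the counting tool, annotation or peak threshold. The authors deposited raw read counts per Ensembl identifier for each input, and for each IP a peak list whose unlabelled number was read as a linear fold enrichment ratio. Fold describes peaks within a list. Peak coordinates are as deposited.

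Counts were scaled with TMM (edgeR 4.0.16, R 4.3.3). Ratios carry exact conditional 95% intervals, levels exact Poisson ones (scipy 1.17.1). Intervals cover counting error only. With 1 library per group no test could be fitted and no p-value is given. The ratio calculation was tried on counts simulated with counting error alone, for identifiers with at least 1 CPM on average. That did not cover Dio2, Elovl3 or Cpt1b, a ratio as high as that of Ucp1, or variation between libraries. RefSeq (GRCm38.p6) gave gene spans and promoters, and names for the peaks but not for the count identifiers, so the planned levels of gene lists in the inputs were not computed. The planned order of genes by level per length was not computed for want of transcript lengths. A gene's peaks have a midpoint in its own span; 1 bp of overlap counts as shared. Named genes outside the 7 are the peak-bearing members of each list, or the 8 with most peaks; genes that hold a nearest peak are named for their position. The members and lists were chosen with earlier results of these data known. Alternatives were scaling (library total, DESeq2 1.42.0, upper quartile), interval, prior, filter, fold and peak settings.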

Additional observations from a re-analysis of the deposited data

How the results depend on the processing

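The 3 higher calls among the 7 genes were found under library-total, DESeq2 and upper quartile scaling, with a 99% interval and without the filter of 1 CPM, and the median log2 ratio of the 7 lay between 0.87 and 1.01. Library-total scaling raised all ratios by 0.09 on the log2 scale, giving Ucp1 a ratio of 37.3. Requiring the interval beyond 2-fold left 2 of the 7 genes, Ucp1 and Cox8b, and beyond 4-fold 1, Ucp1. Over all identifiers those thresholds gave 268 higher and 189 lower, and 10 higher and 48 lower. Counting midpoints within 1 kb of a span gave 2 entacapone peaks in place of 1, by adding the peak beside Cpt1b, and the vehicle number was 0 under each peak setting. At a fold of at least 4, every gene list had fewer members with a peak, by construction, with 29 entacapone and 24 vehicle members of 98 genes in the 5 pathway lists, against 67 and 51 for all peaks. No paired analysis was possible because each treatment has 1 library of each kind. Depth limits Dio2, Elovl3 and Cpt1b most.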

Other observations

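Genes of heat production that does not need UCP1, such as creatine and calcium cycling, were also set beside the peak lists. Of 20 such genes, 10 had an entacapone peak and 7 a vehicle peak, 9 had more entacapone than vehicle peaks and 2 had fewer. Their shares with a peak, 50.0% and 35.0%, lie near or below the 49.9% and 41.1% of all protein-coding genes, of which 29.2% had more entacapone than vehicle peaks and 7.99% fewer. Ryr1, a calcium release channel, had 4 entacapone peaks and 1 vehicle peak, Slc6a8, the creatine transporter, had 3 and 1, and Alpl, a phosphatase of the creatine cycle, had 2 and 1. Ryr2, another calcium release channel, had 2 and 0, and Dgat1, which remakes triglyceride, had 1 and 0. Atp2a1, the calcium pump of fast muscle, went against them with 1 and 2, while Atp2a2, its widely expressed relative, had 2 and 1. In the entacapone list limited to the 22860 peaks of highest fold, 7 of these genes had a peak, as in the vehicle list. Over all 98 genes of the 5 pathway lists, each counted once, 47 had more entacapone than vehicle peaks, 10 had fewer, 14 had equal numbers and 27 had none, where the entacapone list held 1.39 times as many peaks. At equal list length 53 of the 98 had an entacapone peak and 51 a vehicle peak.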
